A study of Mus musculus with 18 samples.

Results

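Potassium channel genes were taken as the protein-coding genes of the GENCODE M21 annotation (mouse genome build mm10) whose symbol starts with Kcn, leaving out Kcnk2, Kcnk4, Kcnk10 and Kcnj10. Of 94 such genes, 90 remained, out of 21951 protein-coding genes. A window was drawn from 10 kb upstream of each start to the end of the gene, and the windows spanned 10.9 Mb together. They held 379 of the 73567 consensus regions, which are stretches where peaks of at least 2 libraries overlapped, and no region lay in the windows of 2 members.

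Peak lists of 18 ATAC-seq libraries were analysed, made from whole retina of wild-type mice, in 6 groups of 3 libraries. ATAC-seq uses a transposase that cuts open chromatin, so that a peak marks accessible DNA. Retinas came from mice aged 3 months (3mo) or 18 months (18mo). In the IOP groups 1 eye was held at an intraocular pressure of 30 mmHg for 1 hour and the retina was taken on day 2, the contralateral groups hold the opposite, unpressurised eyes, and the untreated groups carry no treatment in their labels. The treatment text common to all labels also mentions an injection of dasatinib or vehicle, and no label says which libraries, if any, had either. Each library is 1 retina as far as the protocol states, without an animal identifier, so p-values measure the spread between libraries. A region counted as "called" in a library whose list held a peak overlapping it. A region that was not called may be open and below the threshold of the peak caller.

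Potassium channels let potassium ions leave or enter cells and set the resting voltage, the shape of action potentials and the firing rate of neurons. Voltage-gated subunits (Kv) form pores as groups of subunits, modifier subunits join them without forming pores of their own, calcium- or sodium-activated channels respond to those ions inside the cell, inward rectifiers (Kir) and tandem-pore channels (K2P) hold the resting voltage, and auxiliary subunits change the gating or the transport of pore subunits. In the retina, Kv channels shape the voltage of photoreceptors and the spikes of ganglion cells, and inward rectifiers of Müller glia clear potassium from the extracellular space.

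The libraries held between 36011 peaks (18mo IOP 3) and 66160 peaks (3mo contralateral 2). The shortest peak measured 79 to 89 bp for untreated retinas and 114 to 157 bp for the others, and the sample titles do not say what set that length. The number of peaks and that length went with several differences given below. Promoters of all 5 rod markers were called in 18 libraries. Those of 4 microglial and 2 lens markers were called in 0, as were those of 5 of 6 genes from other organs. Of 4 pigment epithelium markers, 3 were called in 0 libraries and Rgr in 18. Of 3 vessel markers, 2 were called in 0 and Pdgfrb in 9. Other retinal markers were less uniform. Called in 18 libraries were 1 of 4 cone, 2 of 4 bipolar, 1 of 3 Müller glia, 2 of 3 amacrine, 1 of 2 horizontal and 2 of 4 ganglion cell markers. Sncg, a ganglion cell marker, was called in 0, so a missing call does not show that a cell type is absent.

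Promoters of potassium channel genes were called less uniformly than those of other genes. A promoter was taken as 1 kb upstream to 100 bp downstream of any annotated start. Of the 90 members, 31 (34.4%) had a peak there in all 18 libraries, against 51.7% of all protein-coding genes. For 42 members (46.7%) the promoter was called in 1 to 17 libraries, against 12.4% of all genes, and for 17 members (18.9%) in 0 libraries, against 35.8%. The windows of 83 members (92.2%) held at least 1 region, against 75.8% of all genes. These shares describe the members and were not tested. The window is longer for the members (median 38.2 kb, against 27.4 kb over all genes), which bears on the last count. The median percentile of the promoter peak, its rank by −log10 q among all peaks of its own library with 100 the strongest, was 65.2 for the 31 members called throughout and 88.4 over the 11354 protein-coding genes called throughout. For the 42 members called in some libraries it was 20.9, against 25.9 over the 2730 such genes.

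Among pore-forming Kv genes, the promoter was called in 18 libraries for 11 of 30, in 1 to 17 for 18 and in 0 for 1, Kcna10. Kcnh2, the ERG channel, was among the 3 with the strongest promoters, with a mean percentile of 79.6 ± 4.49 (SD over 18 libraries).

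Of 10 modifier subunits, the promoter was called in 18 libraries for 3, in 1 to 17 for 5 and in 0 for 2, Kcng2 and Kcns3. Kcnv2, a silent subunit that joins Kv2 channels in rods and cones and is mutated in a cone dystrophy, had the strongest promoter at 83.8 ± 3.76. Its percentiles were 89.2, 88.8 and 88.7 in 3mo untreated, 81.6, 86.1 and 82.9 in 3mo contralateral and 78.5, 79.9 and 80.3 in 3mo IOP retinas. At 18mo they were 80.9, 86.7 and 86.1 in untreated, 84.9, 86.1 and 85.5 in contralateral and 82.5, 83.9 and 75.9 in IOP retinas. At 18mo the contralateral libraries lay above the IOP libraries, while the untreated libraries overlapped both, and both regions in the Kcnv2 window were called in all 18 libraries. A percentile is a rank within 1 list and no measure of accessibility between libraries.

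Among calcium- or sodium-activated channels, the promoter of 4 of 8 was called in 18 libraries, led by the small-conductance channels Kcnn1 (86.3 ± 5.39), Kcnn2 (71.3 ± 5.93) and Kcnn3 (65.3 ± 8.3). The remaining gene of those 4 was Kcnma1, the large-conductance BK channel, at 37.4 ± 16.4. Kcnn4, the intermediate-conductance channel of blood and epithelial cells, had no promoter call in any library. Inward rectifiers had 6 of 14 promoters in 18 libraries, with Kcnj14 at 85.2 ± 3.33, Kcnj11, the pore of ATP-sensitive channels, at 77.2 ± 4.82, and Kcnj2 at 65.6 ± 11.2. The promoters of Kcnj5, Kcnj13, Kcnj15 and Kcnj16 were called in 0 libraries. Kcnj13 is a channel of the retinal pigment epithelium, a layer whose markers were mostly at 0 as well. Of 11 tandem-pore genes, Kcnk3 (48.5 ± 14.5) and Kcnk13 (43.6 ± 13.4) were called in 18 libraries, and Kcnk9, Kcnk16 and Kcnk18 in 0. Auxiliary genes had 5 of 17 in 18 libraries and 6 in 0 (Kcne1, Kcne1l, Kcne4, Kcnmb1, Kcnmb3 and Kcnrg). Kcnab2, a Kv beta subunit, had the highest promoter percentile of all members, 97.6 ± 1.02, but its promoter overlaps that of Nphp4, so that the 2 cannot be told apart. The promoter of Kcnu1 overlaps that of Ash2l in the same way. In 7 members no region was found at all: Kcne1, Kcnj15, Kcnj16, Kcnk16, Kcnk18, Kcnmb1 and Kcns3.

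The 42 promoters called in some libraries differed between groups in the same order as all such promoters. On average 38.9% of them were called in an 18mo untreated library, 47.6% in 3mo untreated, 50.8% in 18mo IOP, 65.1% in 3mo contralateral, 68.3% in 3mo IOP and 70.6% in 18mo contralateral retinas. Over the 2730 promoters of all genes the same groups had 37%, 38.7%, 45.1%, 54.7%, 55.7% and 61.4%. In 18mo untreated retinas 18 of the 42 were called in 0 of 3 libraries, and in 18mo contralateral retinas 4. Kcnq5, a Kv7 channel of the M-current, was called in 0, 2 and 3 libraries of 3mo untreated, contralateral and IOP retinas and in 0, 3 and 1 at 18mo. Kcnk6, a K2P channel, had 0, 2 and 1 at 3mo and 0, 3 and 3 at 18mo. Kcnt2, a sodium-activated channel, had 3, 2 and 2 at 3mo and 0, 1 and 0 at 18mo, so that most of its calls came from young retinas.

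**Figure D1:**
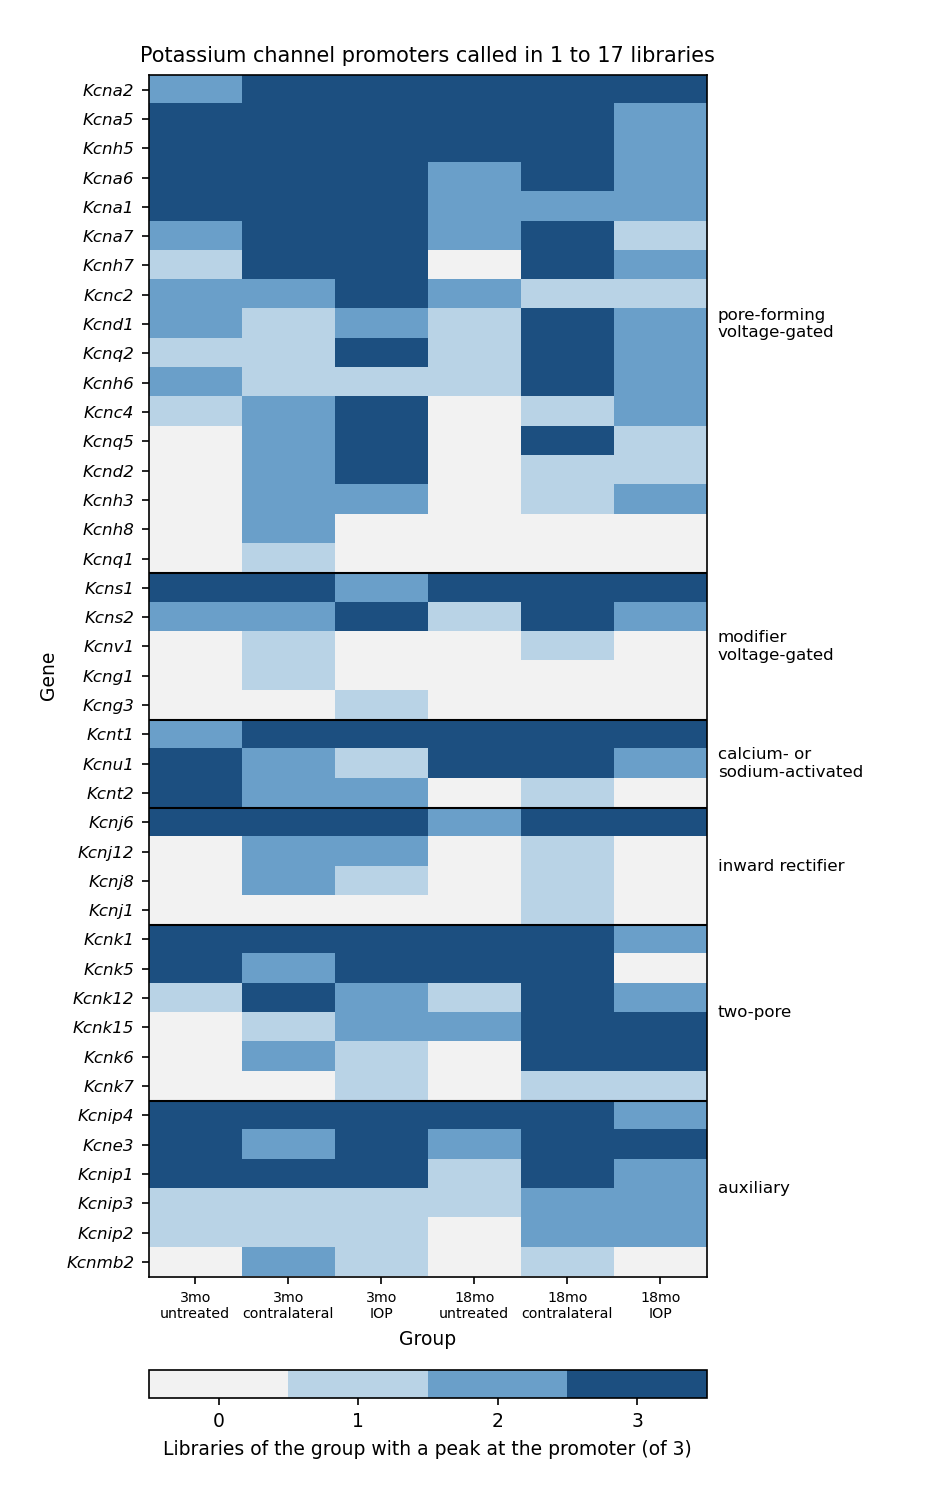
Number of libraries (0 to 3, colour) of each group (columns) with a peak at the promoter, for 41 of the 42 potassium channel genes called in 1 to 17 of 18 libraries (rows, by family). The 2 untreated columns are the palest, with 15 and 18 promoters at 0 of 3, and Kcnk5 is at 0 in 18mo IOP and at 2 or 3 in each other group.

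Away from promoters, the members held 295 regions, and 56 of them were called in all 18 libraries. Over all classes, 96 of 379 member regions (25.3%) were called in all 18, against 33.6% of all consensus regions. Introns held 59.4% of member regions, against 46.2% of all. Among the strongest regions outside promoters were 1 in an intron of Kcnab1, a Kv beta subunit (mean percentile 87.5 ± 3.67, chr3:65203212-65204312), and 1 in an intron of Kcnh6, an ERG relative (87.4 ± 4.3, chr11:106013291-106014464). The motif TAATCC, bound by the photoreceptor factors Crx and Otx2, was searched on both strands in the 200 bp around each summit. It was found in 15 of the 56 member regions outside promoters called in all libraries (26.8%) and in 30 of the 239 others (12.6%). Over all regions outside promoters the shares were 21.5% and 16.5%. A match describes letters and does not show binding. Below are 2 of the constant regions, both with a pair of matches, as the genome's plus strand of mm10, with the matches of the searched motifs in capitals (TAATCC, read GGATTA on the other strand, and in Kcnab1 also TGANTCA, the motif of AP-1).
Kcnab1 intron, called in 18 libraries (chr3:65203490-65203689, plus strand): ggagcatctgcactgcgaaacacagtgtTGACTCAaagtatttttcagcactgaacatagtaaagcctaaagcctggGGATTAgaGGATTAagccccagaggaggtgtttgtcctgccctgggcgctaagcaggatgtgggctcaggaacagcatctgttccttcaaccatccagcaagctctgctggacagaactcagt
Kcnh1 intron, called in 18 libraries (chr1:192277865-192278064, plus strand): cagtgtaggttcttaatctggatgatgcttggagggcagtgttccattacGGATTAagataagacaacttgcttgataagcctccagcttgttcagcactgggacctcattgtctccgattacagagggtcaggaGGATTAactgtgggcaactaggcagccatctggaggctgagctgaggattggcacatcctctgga

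The number of regions differed widely between members. At least 10 were found in 10 genes, which together held 149 of the 379 regions, and 1 to 3 in 51 genes. Kcnma1 had the most (29 in a window of 735 kb). Kcnd3, a Kv4 channel of A-type currents, had 17 and Kcnab2 had 16.

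Across libraries, between 146 member regions (18mo IOP 3) and 313 (3mo contralateral 2) were called. The group means were 213 ± 54.4 in 3mo untreated, 235.7 ± 67.6 in 3mo contralateral and 217.7 ± 15.1 in 3mo IOP retinas (SD, n = 3 each). At 18mo they were 191 ± 10.5 in untreated, 264.7 ± 24.5 in contralateral and 188 ± 36.4 in IOP retinas. As a share of all regions called in the library, contralateral retinas had 0.515% ± 0.0168, IOP retinas 0.473% ± 0.0292 and untreated retinas 0.44% ± 0.0355 (SD, n = 6 each). This share still rose with the number of peaks within the 3mo untreated, 3mo contralateral and 18mo contralateral groups. The 3 contralateral libraries at 18mo, at 240 to 289 regions, lay above the 3 IOP libraries of that age, at 146 to 211, whereas those groups overlapped at 3mo. The 18mo IOP libraries also had shorter lists, at 36011 to 48723 peaks against 51166 to 60755.

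**Figure D2:**
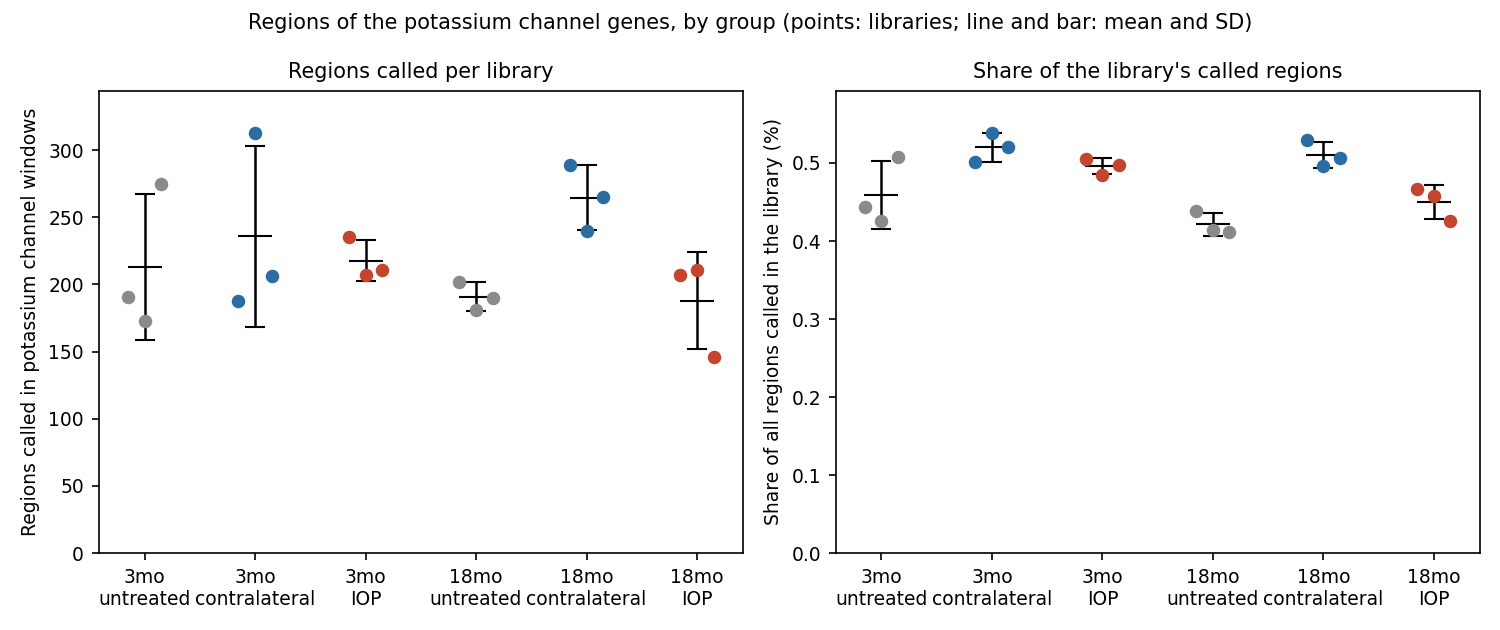
Left, number of member regions called in each library, and right, that number as a percentage of all consensus regions called in the library, by group. Points are libraries, and the line and bar are the mean and SD of 3. The 18mo contralateral libraries lie above the 18mo IOP and 18mo untreated ones in both panels.

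Age was compared between 6 control retinas (contralateral and untreated) of 18mo and 6 of 3mo, the question being how natural aging changes accessibility. Few member regions passed the test. By Fisher's exact test over all regions where p can reach 0.05, 0 of 68 tested member regions were called more often at 18mo (3.19% of all tested regions were) and 1 of 68 was called more often at 3mo (0.385% of all), both at an unadjusted p under 0.05. No region of the genome passed after Benjamini-Hochberg adjustment, the smallest adjusted p being 0.345 over all regions and 0.424 over member regions. The adjusted test did not recover regions changed in simulated data either, so the lack of adjusted calls for age, and for IOP below, does not show that regions were unchanged. Without 3mo untreated 6 or without 3mo contralateral 2, 2 member regions were called more often at 18mo.

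The region called more often at 3mo lay in an intron of Kcnd3 at chr3:105496111-105496583, 44103 bp from the start. It was called in 2 of 3 untreated, 3 of 3 contralateral and 2 of 3 IOP libraries at 3mo, and in 0, 0 and 1 at 18mo, so that 5 of 6 young and 0 of 6 old controls had it (p = 0.0152, adjusted p = 0.424, Fisher's exact test). Its peaks were weak, with a mean percentile of 19.3 ± 14.2 over 8 libraries. With all lists cut to the same number of peaks the p was 0.182, and when a peak had to cover 50% of the region it was 0.455. None of the searched motifs was found in the 200 bp around the summit.
Kcnd3 intron (chr3:105496333-105496532, plus strand): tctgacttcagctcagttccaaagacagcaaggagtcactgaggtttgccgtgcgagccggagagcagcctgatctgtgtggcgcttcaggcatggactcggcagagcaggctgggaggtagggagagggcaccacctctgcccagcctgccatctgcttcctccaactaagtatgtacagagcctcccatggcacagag

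By gene, the number of called regions in the window differed with age in 0 members of 83 in either direction at an unadjusted p under 0.05 (exact permutation test), against 1.63% of all genes with more regions at 18mo and 0.156% with fewer, and no gene passed after adjustment (smallest adjusted p of 1). In contralateral retinas 41 of the 83 members had a higher mean at 18mo and 10 a lower one, and in untreated retinas 18 and 41. The same counts over all genes were not made, so this is no result about the members. The median difference was 0 in both kinds of control, over the members and over all genes. Without 3mo contralateral 2, 2 members had more regions at 18mo, and 1 without 3mo untreated 6, 18mo untreated 5 or 18mo untreated 6. Without 3mo untreated 4, 1 member had fewer. Kcnma1, with 22 regions in 3mo untreated 6 against 9 and 9 in the other libraries of its group, shows how wide the spread within a group was.

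Untreated and contralateral retinas, both ages together, were compared as kinds of control. Of the 68 tested, 6 were called more often in contralateral libraries (5.55% of all tested regions were) and 1 in untreated libraries (5.89% of all), each with p = 0.0152 and adjusted p = 0.132 (Fisher's exact test). The 6 were in Kcnab1, Kcnh6, Kcnh7 (its promoter), Kcnk15, Kcnk6 and Kcnn1. Kind of control went with the shortest peak, so the 2 cannot be told apart. With lists of the same length, an alternative added after seeing the data, 10 of 34 tested member regions were called more often in contralateral libraries and 1 in untreated libraries, against 12.5% and 9.14% of all tested regions. After adjustment 2 of the 34 passed, in Kcnj6, a G-protein-gated Kir channel, and Kcnk15 (p = 0.00216, adjusted p = 0.0404, Fisher's exact test), a share near the 5.36% of all tested regions. Leaving out 1 library gave 6 to 14 and 1 to 3 regions, with 14 without 3mo untreated 6 or 3mo contralateral 1, 12 without 3mo contralateral 3, 11 without 18mo untreated 4 and 10 without 18mo contralateral 2, and 2 or 3 in untreated libraries without 3mo untreated 5, 3mo contralateral 2, 3mo contralateral 3, 18mo untreated 5 or 18mo contralateral 2.

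The next comparison set IOP against contralateral retinas within each age, to ask what a short pressure rise did to accessibility. At 3mo, 0 of 379 member regions were gained, meaning called in every IOP library and in 0 contralateral libraries (0.217% of all regions were), and 0 were lost, the reverse (0.241% of all). At 18mo, 0 were gained (0.239% of all) and 16 were lost, which is 4.22% of member regions against 2.23% of all. No p can fall below 0.1 with 3 libraries against 3, so these are counts. With 1 library left out these counts can only stay or rise, because the rule is easier to meet. Gained regions at 3mo then numbered 3 without 3mo contralateral 2, 2 without 3mo IOP 3 and 1 without 3mo IOP 1. Lost regions at 3mo numbered 5 without 3mo contralateral 1 or 3mo contralateral 3. They numbered 2 without 3mo contralateral 2 or 3mo IOP 2 and 1 without 3mo IOP 1. At 18mo, 1 region was gained without 18mo contralateral 3. In whole retina, a smaller share of a cell type and less accessible DNA in each cell cannot be told apart.

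The 16 regions lay in 15 genes: 2 in Kcnma1 and 1 each in Kcnab1, Kcnb2, Kcnc1, Kcnc4, Kcng2, Kcnh2, Kcnh5, Kcnip4, Kcnk5, Kcnk13, Kcnmb4, Kcnn2, Kcnq3 and Kcnq5. Introns held 13 of them, 2 were intergenic and 1 was a promoter. Their median percentile was 27, close to the 27.7 of all member regions. They were not constant features of the other groups: 6 were called in 0 of 3 untreated 18mo libraries and 2 in 3 of 3, and at 3mo the IOP libraries called 6 of them in 0 of 3 and 3 in 3 of 3. The Kcnq5 region, for instance, was called in 3 of 3 libraries of each 3mo group, in 0 of 3 untreated at 18mo, in 3 of 3 contralateral and in 0 of 3 IOP.

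The count of lost regions depended on the number of peaks kept. Each library was cut to its 36011 strongest peaks, the size of the shortest list. Then 2 of 232 member regions were lost at 18mo (0.862%, against 0.796% of all) and 1 was gained (0.431%, against 0.927% of all). The 2 were upstream of Kcnh2 (chr5:24357606-24357792), which is also among the 16, and at Kcnip2, a Kv4-interacting protein (chr19:45813342-45813626). Without 18mo contralateral 2 the count of lost regions was 33, and without any other single library 18 to 24. The rule is easier to meet with 1 library fewer, and the share over all regions was not computed for these counts.

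**Figure D3:**
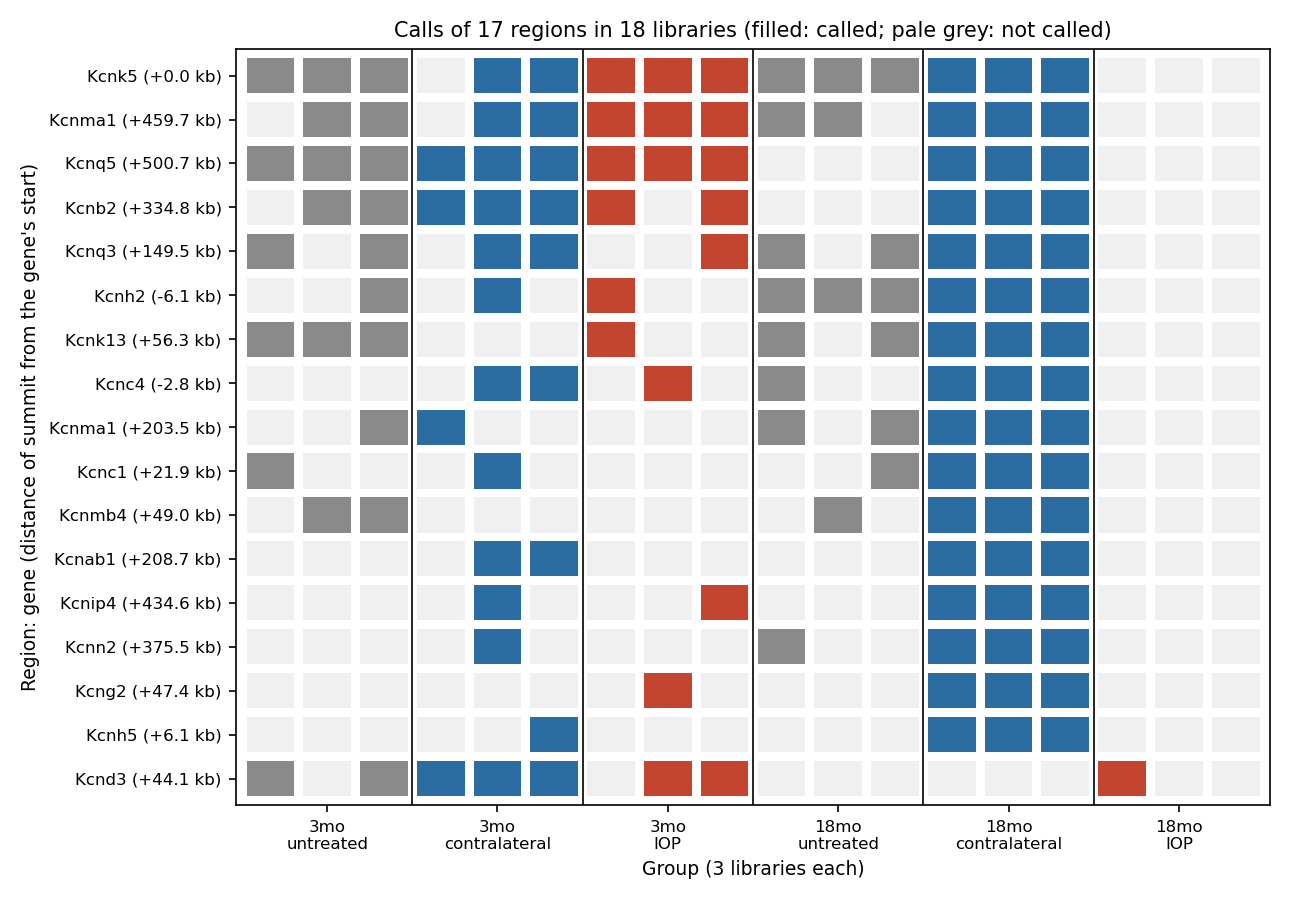
Calls of 17 member regions (rows, with gene and distance of the summit from its start) in 18 libraries (columns, 3 per group). Filled cells are called and pale cells are not. The first 16 rows are the regions called in all 3 contralateral and no IOP library at 18mo, and the last is the Kcnd3 region called in 5 of 6 control libraries at 3mo and 0 of 6 at 18mo.

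The promoter among the 16 was that of Kcnk5, a pH-sensitive K2P channel (chr14:20181524-20181949). It was called in 3, 2 and 3 libraries of 3mo untreated, contralateral and IOP retinas and in 3, 3 and 0 at 18mo. Its percentiles were 53.5, 36 and 39.6 in 18mo untreated libraries but 13.7, 11.5 and 2.81 in 18mo contralateral ones, so the peaks that had no counterpart after IOP were near the bottom of their own lists. At 3mo the percentiles were 26.4, 32.8 and 58.1 in untreated libraries, 59 and 33.4 in the 2 contralateral libraries that called it, and 7.74, 27.3 and 11.2 after IOP. The 250 bases upstream of the RefSeq start, given in gene direction, held 19 CpG pairs, marked in capitals. As many or more were found in 19.7% of 32851 RefSeq promoters of that length, whose median was 6.
Kcnk5 promoter (chr14:20181783-20182032, minus strand): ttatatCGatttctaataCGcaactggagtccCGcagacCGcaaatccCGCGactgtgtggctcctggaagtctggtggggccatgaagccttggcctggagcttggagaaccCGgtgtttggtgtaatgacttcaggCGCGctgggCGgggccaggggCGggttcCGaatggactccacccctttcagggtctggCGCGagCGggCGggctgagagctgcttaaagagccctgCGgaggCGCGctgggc

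Upstream of Kcnh2, 6.1 kb before the start, the lost region was called in 1, 1 and 1 libraries at 3mo and in 3, 3 and 0 at 18mo (untreated, contralateral, IOP). All 6 old controls and 2 of 6 young ones thus called it (p = 0.0606, Fisher's exact test). With each library cut to the size of the shortest list, the numbers were 1, 0 and 1 at 3mo and 0, 3 and 0 at 18mo. The calls in 18mo untreated retinas, and with them the difference between ages, thus depended on the number of peaks kept.

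Over both ages, 1 member region passed the unadjusted threshold for IOP. In the exact test stratified by age, 0 of 33 tested member regions were called more often after IOP (1.62% of all tested regions were) and 1 of 33 was called less often (3.43% of all), at an unadjusted p under 0.05. Nothing passed after adjustment, with a smallest adjusted p of 0.397. The region lay in an intron of Kcnab1 at chr3:65317891-65318335, 208697 bp from the start. Its peaks appeared in 2 of 3 contralateral libraries at 3mo, in 3 of 3 at 18mo and in 0 of the other 12 libraries, untreated ones included (p = 0.02 and adjusted p = 0.397 by the exact test). The mean percentile was 18.2 ± 11.4 over those 5 libraries. With age and shortest-peak length as strata the p was 0.0278, and it was 0.5 when a peak had to cover 50% of the region. With all lists cut to the same number of peaks, no consensus region was left at this place, so it had no p. The 1 member region called less often at that setting was another one. Leaving out 1 library gave up to 6 regions called less often: 6 without 3mo contralateral 1, 5 without 3mo contralateral 3, 3 without 3mo contralateral 2, 3mo IOP 2 or 3mo IOP 3, and 2 without 3mo IOP 1, 18mo contralateral 2 or 18mo IOP 2. The 200 bases around the summit held 1 match, in capitals, of TTCNNNGAA, the motif of STAT factors, which was found in 4.4% of all regions.
Kcnab1 intron, called in 5 contralateral libraries (chr3:65317981-65318180, plus strand): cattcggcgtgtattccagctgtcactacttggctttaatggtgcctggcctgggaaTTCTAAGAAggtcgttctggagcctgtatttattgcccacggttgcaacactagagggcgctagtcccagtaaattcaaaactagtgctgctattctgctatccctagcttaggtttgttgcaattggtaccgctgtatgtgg

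Per gene, the number of called regions was lower after IOP in 2 of 83 members, Kcnma1 and Kcnb2 (0.974% of all genes were), and higher in 0 (0.126% of all), by the exact permutation test within age at an unadjusted p under 0.05. The adjusted p was 1 for both. Kcnma1 codes for the BK channel, which couples calcium entry to potassium efflux. Its 29 regions were called 12, 24 and 10 times in the 3mo contralateral libraries and 9, 11 and 16 times in the 3mo IOP libraries. At 18mo the contralateral libraries had 20, 16 and 17 and the IOP libraries 8, 11 and 5. The groups overlapped at 3mo and did not at 18mo. The untreated libraries, with 9, 9 and 22 at 3mo and 19, 11 and 9 at 18mo, covered most of the range. The mean difference over both ages was −6.5 regions (IOP minus contralateral, p = 0.045, exact permutation test), and the difference of −9.67 at 18mo and −3.33 at 3mo was not shown to differ between ages (p = 0.39, exact permutation test).

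Kcnb2, a Kv2 channel, had 8 regions. Of these 3, 7 and 4 were called in the 3mo contralateral libraries and 4, 3 and 3 in the 3mo IOP libraries. The 18mo contralateral libraries had 4, 3 and 4 and the IOP libraries 2, 1 and 1, a difference over both ages of −1.83 (p = 0.04, exact permutation test). The 18mo untreated libraries had 2, 1 and 1 as well, the same numbers as after IOP. Both calls depended on how peaks were kept and counted: with an equal number of peaks the differences were −0.667 for Kcnma1 (p = 0.48, exact permutation test) and −0.833 for Kcnb2 (p = 0.06). When a peak had to cover 50% of a region the Kcnma1 difference was −4.83 (p = 0.135, exact permutation test) and that of Kcnb2 −1.33 (p = 0.04). As a share of the library's called regions the p-values were 0.035 and 0.01 (exact permutation test). By that share 3 members were lower after IOP, Kcnb2, Kcnma1 and Kcnmb4 (1.45% of all genes were), and 0 were higher (2.49% of all). The call of Kcnma1 was lost, at p = 0.06 to 0.08, without each of 3mo contralateral 2, 3mo IOP 1, 3mo IOP 2 and the 6 libraries of 18mo, and that of Kcnb2, at 0.055 to 0.06, without 3mo contralateral 2, 3mo IOP 2 or 3mo IOP 3 (exact permutation test). The count of members with fewer regions was 11 without 3mo contralateral 1, 6 without 3mo contralateral 3, 1 without 18mo contralateral 1, 18mo IOP 1 or 18mo IOP 3, and 0 without 3mo contralateral 2.

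**Figure D4:**
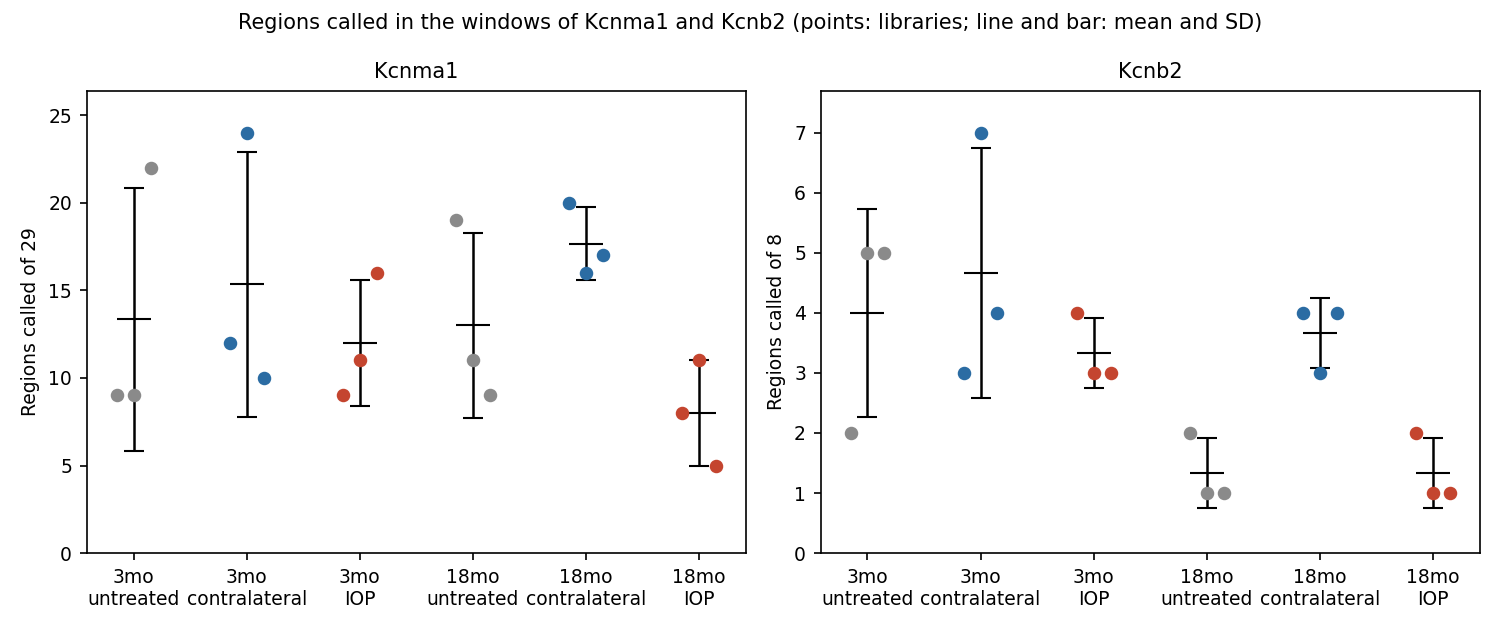
Number of regions called in each library in the windows of Kcnma1 (left, of 29) and Kcnb2 (right, of 8), by group. Points are libraries, and the line and bar are the mean and SD of 3. In both genes the 18mo contralateral libraries lie above the 18mo IOP libraries.

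Within Kcnma1, 26 of the 29 regions were intronic and 2 were called in all 18 libraries, a promoter region at an annotated start 9538 bp into the gene and an intronic region 165849 bp in. The median region was called in 7 libraries, and 13 were called in 2 to 6. Of the 29, 20 were called in more contralateral than IOP libraries, 4 in fewer and 5 in as many. For untreated against IOP libraries the numbers were 12, 7 and 10. These counts split the gene's difference given above by region and are no separate evidence for it. Contralateral libraries also called more member regions altogether, with means of 250.2 against 202.8 in IOP libraries. All 29 were called in at least 1 contralateral library, while 6 were called in 0 IOP libraries and 5 in 0 untreated ones. The regions lost at 18mo lay at chr14:23554594-23554984, 459652 bp into the gene, and at chr14:23810883-23811079, 203513 bp in. The first was called in 2, 2 and 3 libraries at 3mo and 2, 3 and 0 at 18mo, and the second in 1, 1 and 0 and in 2, 3 and 0 (untreated, contralateral, IOP). TAATCC was found in 9 of the 29 summit windows. Both lost regions hold 1 match, and the second also 1 match of TTCNNNGAA, shown in capitals on the genome's plus strand, opposite to the gene.
Kcnma1 intron, more distant region (chr14:23554739-23554938, plus strand): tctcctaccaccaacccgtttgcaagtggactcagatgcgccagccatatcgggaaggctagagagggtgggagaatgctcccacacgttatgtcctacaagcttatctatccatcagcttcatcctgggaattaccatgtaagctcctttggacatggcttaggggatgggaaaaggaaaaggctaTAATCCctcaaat
Kcnma1 intron, nearer region (chr14:23810878-23811077, plus strand): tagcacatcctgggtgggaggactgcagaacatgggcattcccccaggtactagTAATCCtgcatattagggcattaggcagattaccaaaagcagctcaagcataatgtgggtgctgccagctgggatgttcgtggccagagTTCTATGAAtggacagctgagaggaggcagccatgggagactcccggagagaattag

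**Figure D5:**
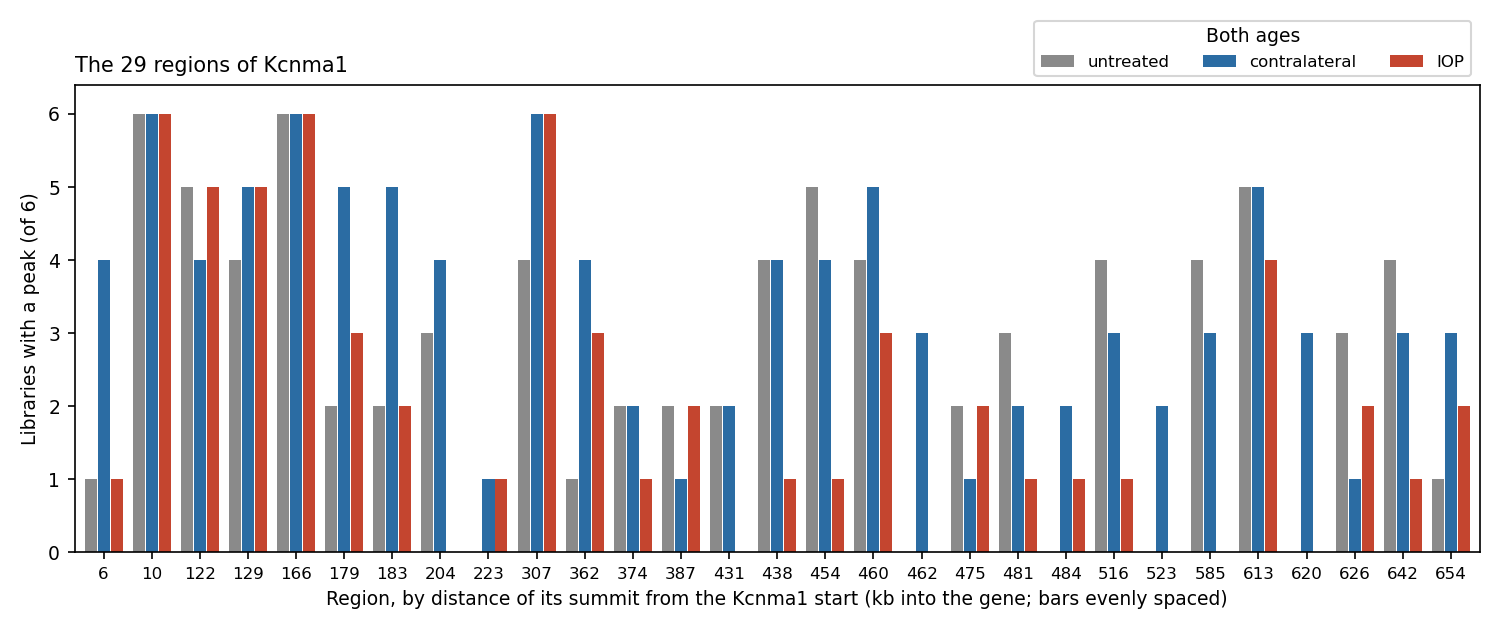
Libraries with a peak (of 6, both ages together) in each of the 29 Kcnma1 regions, in order of distance from the start of the gene, for untreated, contralateral and IOP retinas. All 3 bars reach 6 in the pair of regions called in every library, and IOP bars are missing at 6 regions.

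For comparison, 17 partner genes that are no members were followed with the same tests. They comprise HCN pacemaker channels and a subunit, sulfonylurea receptors, Kv4 and Kv2 partners, BK gamma subunits and axonal Kv1 anchors. Promoters of 7 were called in 18 libraries, of 5 in 1 to 17 and of 5 in 0. Of their 116 regions, 1 was gained at 18mo and 2 were lost, in Pex5l and Dpp6. Dpp6, a partner of Kv4 channels, was the 1 partner with fewer regions called after IOP at an unadjusted p under 0.05.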

How the data were processed

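ATAC-seq peak lists of 18 mouse retina libraries were used, 3 per group, with groups taken from the sample titles. Per the labels and the study's methods, the authors called peaks in each library with MACS2 on mm10 at a q-value threshold of 0.05. The deposited lists give a score, a fold enrichment (a ratio), a −log10 p-value and a −log10 q-value for each peak, and reads are not used here. The submitters' notes also name STAR 2.7.8a, bedtools 2.29.2, HOMER and edgeR without a role. The extraction text in the labels describes crosslinking and immunoprecipitation before it turns to ATAC-seq libraries, and the study's text gives another day of collection than the labels, which say day 2.

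Peaks were merged across libraries (99792 stretches), and the 73567 with peaks of at least 2 libraries were kept. A peak overlapping a region by 1 bp was a call. Regions were tested by Fisher's exact test or an exact test stratified by age, and genes by exact permutation of the number of called regions, two-sided, with Benjamini-Hochberg adjustment over all regions or genes. Peak heights were not compared between libraries. The depth of the libraries is unknown, and a library's number of peaks (36011 to 66160) stands in for it. Named were all members with a promoter called in 0 or in 1 to 17 libraries, the 3 strongest promoters per family, regions and genes past an unadjusted 0.05 or called in 3 of 3 against 0 of 3, the 10 members with most regions and members with known retinal roles. The Kcnh1, Kcnh6 and Kcnj6 regions, and the lost Kcnip2 region, were named after their values were seen. Single values of some genes that this rule names are not reported here, and these genes stay in all counts. The members and lists were chosen with earlier results of these data known. Sequences came from mm10 and RefSeq (GRCm38.p6), whose promoter table holds 65 of the 90 members. Python 3.11.15, numpy 2.4.6, pandas 2.3.3, pysam 0.24.0 and matplotlib 3.10.9 were used, and the tests were tried on simulated data first.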

Additional observations from a re-analysis of the deposited data

How the results depend on the processing

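Of 135 values of main results under other settings, 113 stayed within the limits set for them and 22 moved. When a peak had to cover 50% of a region, 3 member regions were called more at 18mo and 0 more at 3mo, so that the balance of 0 and 1 turned round, 1 was gained at 3mo and 1 at 18mo with IOP, 1 member had more regions at 18mo and 1 fewer with IOP (Kcnb2, without Kcnma1). With an equal number of peaks, 1 region was gained and 2 lost at 18mo (0.927% and 0.796% of all regions were). At 3mo 1 was gained and 2 were lost (0.438% and 0.317% of all). At the same setting 0 regions were called more at 3mo than at 18mo, 1 member had more regions at 18mo and 0 had fewer with IOP. There 26 promoters were called in 0 libraries, and 10 regions were called more in contralateral libraries, with 2 passing after adjustment. With the shortest-peak length as stratum 1 member had fewer regions at 18mo. With the share of called regions in place of their number, 2 members had more at 18mo (Kcne2 and Kcnj5, against 3.42% of all genes) and 4 fewer (Kcnb2, Kcnh8, Kcnj2 and Kcnu1, against 2.9%). Where no share over all regions or genes is given for a setting here or above, none was computed. Beyond fewer peaks or stricter overlap by construction, the cause was not tested.

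Leaving out 1 library gave these ranges: regions lost at 18mo 18 to 33 and gained 0 to 1, lost at 3mo 0 to 5 and gained 0 to 3, called less with IOP 1 to 6, called more at 18mo 0 to 2, more in contralateral libraries 6 to 14 and more in untreated libraries 1 to 3. Members with fewer regions with IOP numbered 0 to 11, with more at 18mo 0 to 2 and with fewer at 18mo 0 to 1. Counts of gained and lost regions can only stay or rise when a library is left out. Shares over all regions or genes were not computed with 1 library left out, so these ranges do not set the members apart.

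Whether equal replicate numbers mark eyes of the same mouse is not known. Same-numbered libraries of the IOP comparison correlated at −0.09 to 0.10 and other-numbered ones at −0.15 to 0.14, which cannot decide it. With a replicate block, 0 regions were called more at 3mo (Kcnd3 p = 0.0625, exact test), 0 less with IOP (Kcnab1 p = 0.0625, exact test) and 0 members had fewer regions with IOP. The calls of each of these regions all lay on the same side of its comparison. With that number of calls, 0.0625 was the smallest p the block allowed. Neither region could therefore pass the unadjusted threshold, and these p-values do not show that the block weakened either call.

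Peak lists limit what can be seen: a region without a call is not shown to be closed, 3 libraries against 3 cannot give p below 0.1, and list length differed between groups.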

Other observations

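Some of the strongest peaks inside the windows belonged to promoters of neighbouring genes. Of the 84 promoter regions in member windows, 11 were promoters of other genes only, in 10 windows, and 8 of those were called in all 18 libraries. The Yif1b promoter in the Kcnk6 window had a mean percentile of 98.4 and the Cntrob and Trappc1 promoter in the Kcnab3 window 97.5. Snrnp70 in the Kcna7 window stood at 92.9 and Trim13 in the Kcnrg window at 87.9. Kcnq1ot1, an imprinted non-coding RNA that runs antisense inside Kcnq1, stood at 92.2.

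Regions called in 3 of 3 libraries of 1 age and 0 of 3 of the other differed in number between the kinds of control. In contralateral retinas, 5 member regions were called at 18mo only and 1 at 3mo only (1.14% and 0.122% of all regions were). In untreated retinas the numbers were 1 and 5 (0.892% and 0.776% of all). The difference between the kinds was not tested.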
